A study of Mus musculus with 6 samples.

Results

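The genes described here are 46 interferon-stimulated genes and nucleic acid sensors, chosen by name. They were measured with Illumina MouseRef-8 bead arrays in calvaria cells of C57BL/6 mice. The platform annotation names 44 of the 46 among the 16593 genes on the array, on 73 of its 25697 probes, and the probes of a gene are described separately. *Ifi44* and *Dtx3l* have no probe that the annotation names and were not analysed here. Of the 73 probes, 54 from 36 genes passed the filter on dim signals and were tested, which asked for detection (p under 0.01) on 3 or more of all 6 arrays.

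Total RNA was made into biotinylated cRNA, and 3 arrays labelled *Mmp13* knock out were compared with 3 arrays labelled wild type. The paper names the same arrays differently, as ERα deleted (genotype ERα f/f;GFP:Osx1-Cre) against GFP:Osx1-Cre controls, both sorted by GFP from cultured calvaria cells of newborn mice. In that description the cells of both groups carry the Cre transgene, whose Osx1 promoter drives Cre in the osteoblast lineage. *Mmp13*, the collagenase gene that the labels call knocked out, was higher and not lower on the arrays labelled knock out. Its brightest probe (ILMN_2737685) read 12.41, 12.91 and 12.79 on them, against 8.91, 9.42 and 9.73 on the arrays labelled wild type (log2 difference 3.35, standard error 0.24, adjusted p = 0.00048 from limma). A dimmer probe, ILMN_1249336, read 9.12, 9.68 and 9.55, against 5.37, 4.45 and 6.44 on the arrays labelled wild type (adjusted p = 0.0025). ILMN_2799267 was not detected on any array labelled wild type and was at least 2.23-fold higher on those labelled knock out (adjusted p = 0.0018). *Esr1*, which encodes ERα, has 2 probes, and neither was detected on any array (detection p from 0.164 to 0.984), so these arrays do not show which gene was deleted. Groups are therefore called by their labels throughout, and every direction is that of the arrays labelled knock out relative to those labelled wild type.

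Values are log2 signals after background correction and quantile normalization, so a difference of 1 is a doubling. Levels of different probes are not compared, since each probe binds with its own strength. The columns of 2 arrays labelled knock out share a heading, so which of them is replicate 2 or 3 is unknown, and they are called arrays X and Y. Values of the arrays labelled knock out are listed as replicate 1, array X and array Y, and those of the arrays labelled wild type as replicates 1, 2 and 3. From 40.2% to 43.6% of all probes were detected per array, and the median scanner signal ran from 85.1 to 109. The labels do not give separate cultures, animals or litters for the arrays, so p-values measure only the spread between arrays, which may be technical. Wild type replicates 2 and 3 stood apart at some dim probes, which is described below with the values of the genes concerned. Osteoblast markers were measured in both groups, and some of them differed between the groups. The summed signal of all 14 osteoblast probes ran from 60300 to 63500 on the arrays labelled knock out. On those labelled wild type it was 59400, 59500 and 52200 on replicates 1, 2 and 3, so the low end came from replicate 3 alone. The median log2 difference of the tested osteoblast probes was 0.72. Of these probes, 5 were higher, 1 was lower and 4 were not called on the arrays labelled knock out. Those higher were *Ibsp*, a bone matrix sialoprotein gene, not detected on any array labelled wild type and at least 3.10-fold higher on the others (adjusted p = 0.00048), the osteocalcin gene *Bglap* at 2 probes (log2 differences 1.67 and 1.43, adjusted p = 0.0022 and 0.0018), its near-identical neighbour *Bglap2* (1.48, adjusted p = 0.0041) and the alkaline phosphatase gene *Alpl* (1.02, adjusted p = 0.025). *Col1a1*, the main collagen gene of bone, read 13.33, 13.35 and 13.58 on the arrays labelled knock out and 13.77, 13.87 and 13.13 on those labelled wild type and was not called (log2 difference -0.17, adjusted p = 0.59). *Sp7*, which encodes osterix (Osx1), read 9.55, 9.36 and 9.40 on the arrays labelled knock out and 10.40, 10.18 and 10.11 on those labelled wild type (log2 difference -0.80, adjusted p = 0.0073). The part of these marker differences in the interferon result was not tested.

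Interferons are cytokines that nearly all cells can answer. Type I interferons bind the receptor of *Ifnar1* and *Ifnar2*, and the kinases JAK1 and TYK2 then activate transcription factors that bind the interferon-stimulated response element. Interferon-γ acts through a receptor of its own, made of *Ifngr1* and *Ifngr2*. Cytosolic sensors such as RIG-I and MDA5 start interferon production when they meet viral or misplaced RNA, and many sensors are themselves induced by interferon. In bone, interferon-β and interferon-γ are both known to restrain osteoclast formation.

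Promoter sequences show the motif that many of these genes share. RefSeq promoters (build GRCm38.p6, 250 bases before to 50 after the start of a gene) matched 35 of the 46 genes by symbol. The core of the response element was searched on both strands as the letters GAAA, NN (any 2 bases) and GAAA again, and the core of the gamma-activated site, an element of interferon-γ responses, as TTCNNNGAA, which reads the same on both strands. The motifs can overlap. The response element core was found in 19 of the 35 promoters (54.3%), against 1079 of 27025 promoters in the whole table (3.99%) and 241 of 6295 promoters of genes tested on the array (3.83%). TTCNNNGAA was found in 9 of 35 (25.7%), against 9.55% of the whole table and 8.1% of the tested genes. The response element core was in 12 of 22 promoters of genes with a probe called higher (54.5%), in 4 of 7 of genes tested with no probe called (57.1%) and in 3 of 4 of genes with no tested probe. A match is only a description of the letters. The 160 bases before the start are printed for 5 genes that were higher on the arrays labelled knock out, for the paralogs *Oas1g* and *Oas1a*, of which only *Oas1g* was detected, and for *Ifitm2*, which was detected on all arrays and not called. They run 5′ to 3′ along the gene, and capitals mark the response element core, or its complement (TTTC, NN, TTTC) where the match is on the other strand.
*Isg15* (chr4:156200819-156200978, minus strand): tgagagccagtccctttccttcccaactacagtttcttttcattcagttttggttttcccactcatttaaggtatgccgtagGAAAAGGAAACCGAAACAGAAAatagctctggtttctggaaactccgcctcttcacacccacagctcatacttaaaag
*Bst2* (chr8:71537473-71537632, minus strand): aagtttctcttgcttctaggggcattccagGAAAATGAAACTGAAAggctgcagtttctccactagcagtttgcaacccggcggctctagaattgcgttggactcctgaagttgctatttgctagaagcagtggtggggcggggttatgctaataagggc
*Ifit3* (chr19:34583369-34583528, plus strand): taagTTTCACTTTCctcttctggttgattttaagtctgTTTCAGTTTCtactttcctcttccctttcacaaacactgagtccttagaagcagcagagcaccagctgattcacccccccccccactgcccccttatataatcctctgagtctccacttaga
*Gbp3* (chr3:142559884-142560043, plus strand): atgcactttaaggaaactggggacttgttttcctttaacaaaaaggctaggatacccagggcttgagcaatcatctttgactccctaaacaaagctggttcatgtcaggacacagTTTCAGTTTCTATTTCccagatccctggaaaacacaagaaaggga
*Irgm1* (chr11:48871421-48871580, minus strand): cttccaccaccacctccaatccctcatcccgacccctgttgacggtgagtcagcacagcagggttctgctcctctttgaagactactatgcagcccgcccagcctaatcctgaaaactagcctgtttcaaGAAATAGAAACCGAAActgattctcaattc
*Oas1g* (chr5:120887614-120887773, minus strand): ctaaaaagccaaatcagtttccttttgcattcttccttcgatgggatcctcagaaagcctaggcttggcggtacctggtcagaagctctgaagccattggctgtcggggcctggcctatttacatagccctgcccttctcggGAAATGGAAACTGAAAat
*Oas1a* (chr5:120907526-120907685, minus strand): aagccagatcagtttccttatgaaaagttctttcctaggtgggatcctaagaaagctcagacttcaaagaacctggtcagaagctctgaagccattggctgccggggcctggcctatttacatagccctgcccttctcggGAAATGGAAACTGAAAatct
*Ifitm2* (chr7:140955962-140956121, minus strand): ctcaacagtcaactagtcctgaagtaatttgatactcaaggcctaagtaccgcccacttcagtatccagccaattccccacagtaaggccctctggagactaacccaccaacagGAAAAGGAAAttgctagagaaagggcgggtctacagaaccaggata
In *Isg15*, *Bst2*, *Gbp3*, *Irgm1*, *Oas1g* and *Oas1a* the matches overlap and form a single run of repeats, whereas *Ifit3* has 2 separate matches and *Ifitm2* has 1. The capitals of *Oas1g* and *Oas1a* are the same letters.

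Interferon-stimulated genes were mostly higher on the arrays labelled knock out. Of the 54 tested probes, 35 (64.8%) were called higher at an adjusted p under 0.05 in limma's moderated test, and these belong to 25 genes. Among all 11089 tested probes, 982 were called higher, which is 8.86%. No tested probe was called lower, against 9.22% of all tested probes. At an unadjusted p under 0.05, 43 of the 54 were higher and 2 were lower, against 1786 and 2056 of all 11089 tested probes. At the adjusted threshold, a count of 0 lower was also found with the authors' own normalized table. The median log2 difference was 1.03 over the 54 probes and -0.02 over all tested probes. The 3 arrays labelled knock out lay above all 3 arrays labelled wild type at 41 of the 54 probes (75.9%), against 20.3% of all tested probes, and below them at 3, against 22.1%. Of the 54 probes, 42 were detected on all 6 arrays, and 26 of these (61.9%) were called higher, against 7.89% of all probes so detected. None of the 42 was called lower, against 8.93%. The count depended on which arrays were used. It was 10 without array X, 9 without array Y, 14 without wild type replicate 1, 27 without knock out replicate 1, 41 without wild type replicate 2 and 38 without wild type replicate 3. The count over all 11089 tested probes, 982 with all arrays, moved too. In the same order it was 430, 399, 447, 526, 1130 and 1662.

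Macrophage markers moved with the groups in the other direction. All 15 tested macrophage probes, from 12 genes, were called lower on the arrays labelled knock out, against 9.22% of all tested probes. The median log2 difference of these 15 was -1.70. Of them, 5 were detected on all 6 arrays, and all 5 were lower (median -1.59), against 8.93% of all probes so detected. The others were detected on every array labelled wild type but not on every array labelled knock out. They thus passed the filter through the group where they were higher. The summed normalized signal of the 27 macrophage probes ran from 3050 to 3450 on the arrays labelled knock out and from 9220 to 9550 on those labelled wild type. *Tyrobp* was not detected on any array labelled knock out, *Adgre1*, which encodes F4/80, was still detected on 2 of them by ILMN_1216880, and *Ptprc* and *Itgam* were not detected on any array. In such mixed RNA, fewer cells of a type and less RNA per cell cannot be told apart. Markers of lymphocytes and of plasmacytoid dendritic cells, which can make much type I interferon, were at or near background, with 0 or 1 of 13 probes detected per array and summed signals of 321 to 331 on the arrays labelled knock out and 327 to 345 on those labelled wild type. The part of the macrophage difference in the interferon result was not tested.

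**Figure D1:**
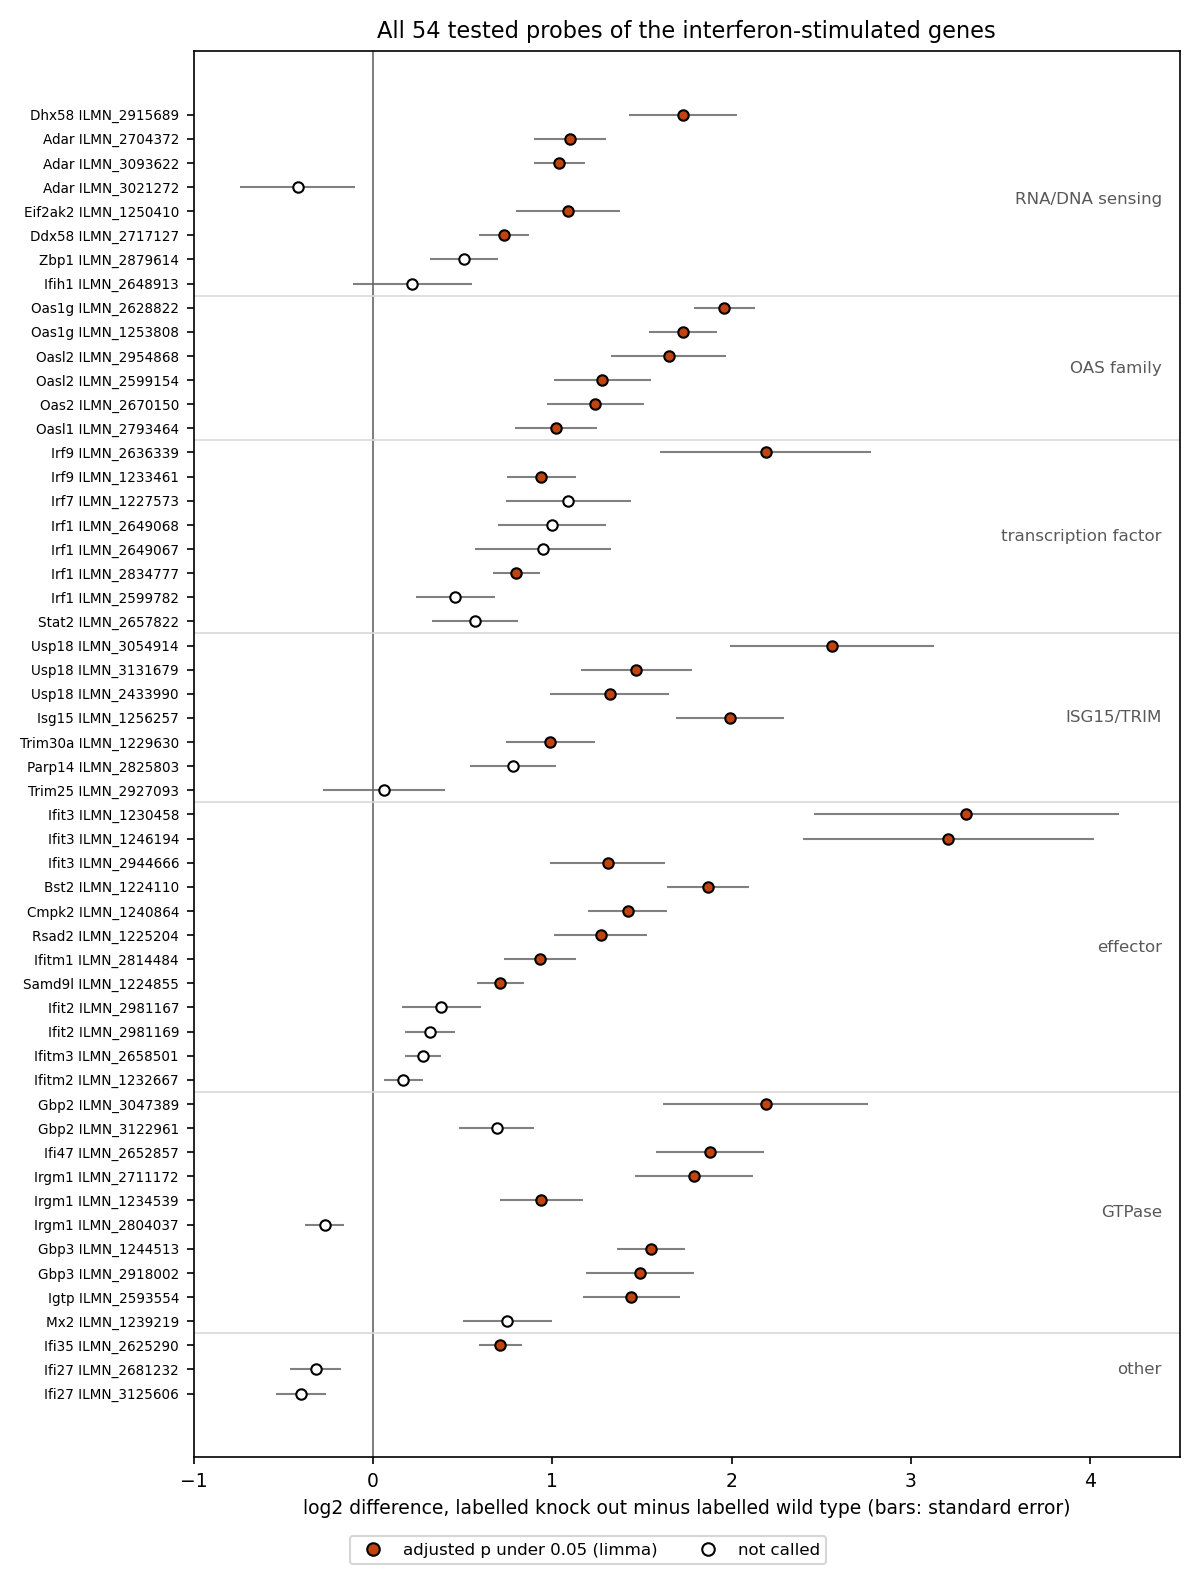
Log2 difference of each of the 54 tested probes, arrays labelled knock out minus arrays labelled wild type, grouped by the role of the gene. Points are differences with bars of 1 standard error, and filled points have an adjusted p under 0.05 in limma. All 35 filled points lie to the right of 0, and 4 open points lie to the left of it.

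RNA and DNA sensors came first in the order of the pathway, grouped here with the RNA-editing gene *Adar*. Of the 8 tested probes of this group, 5 were higher, some of them *Adar* probes. *Dhx58*, which encodes the RIG-I-like receptor LGP2, read 7.61, 8.18 and 7.95 on the arrays labelled knock out, against 5.62, 6.75 and 6.19 on those labelled wild type. The groups did not overlap, and the log2 difference was 1.73 (standard error 0.30, adjusted p = 0.011). *Ddx58*, which encodes RIG-I itself and is also named *Rigi*, read 8.38, 8.52 and 8.53 on the arrays labelled knock out, against 7.69, 7.54 and 8.0 on those labelled wild type. Its difference of 0.73 (standard error 0.14, adjusted p = 0.018) was among the smaller ones called, but all 3 arrays labelled knock out were above the others. *Ifih1*, which encodes the sister sensor MDA5, was not called (log2 difference 0.22, 95% interval -0.57 to 1.01, adjusted p = 0.65), and it was detected on 2 of the 3 arrays of each group. *Dhx58* no longer passed without array X or Y (adjusted p up to 0.056), nor did *Ddx58* without knock out replicate 1, array X, array Y or wild type replicate 1 (up to 0.082). With median scaling of the arrays in place of quantile normalization, *Ddx58* had an adjusted p of 0.18.

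*Eif2ak2*, which encodes the kinase PKR that halts translation on binding viral RNA, read 10.31, 10.88 and 10.70 on the arrays labelled knock out, against 9.41, 9.07 and 10.14 on those labelled wild type. Wild type replicate 3 came close to the lowest array labelled knock out, and the difference of 1.09 had an adjusted p of 0.045. *Adar*, which encodes the enzyme that edits adenosine in RNA, has 3 tested probes that differ from each other. ILMN_2704372 read 6.96, 7.42 and 7.0 on the arrays labelled knock out, against 6.34, 6.01 and 5.74 on those labelled wild type (adjusted p = 0.013). ILMN_3093622 was not detected on any array labelled wild type and was at least 1.48-fold higher on the others (adjusted p = 0.0044), while ILMN_3021272 had a log2 difference of -0.42 with an adjusted p of 0.37 and overlapping groups. *Zbp1*, a sensor of Z-form nucleic acid, had 1 tested probe, with a log2 difference of 0.51 (adjusted p = 0.11). Its other probe was detected on 2 arrays labelled knock out and on none labelled wild type. With 1 array left out, *Eif2ak2* passed only without wild type replicate 3 (otherwise up to 0.16), and it did not pass with median scaling (0.071) or with no filter on dim probes (0.087). ILMN_2704372 of *Adar* did not pass without array X or Y (adjusted p up to 0.054), and *Zbp1* passed without wild type replicate 3 (adjusted p = 0.021).

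Genes of the 2′-5′ oligoadenylate synthetase family, some of whose products activate the RNA-degrading enzyme RNase L, were higher at all 6 tested probes. Of the 13 probes of these genes, 7 were not tested. *Oas1g* had the smallest adjusted p of the 54 probes. Its probe ILMN_2628822 read 8.13, 8.50 and 8.31 on the arrays labelled knock out, against 6.12, 6.32 and 6.63 on those labelled wild type. The difference was 1.96 (standard error 0.17, adjusted p = 0.00087), a 3.88-fold change with tight groups. Probe ILMN_1253808 of the same gene read 9.43, 9.95 and 9.58 on the arrays labelled knock out, against 7.70, 8.23 and 7.83 on those labelled wild type (log2 difference 1.73, adjusted p = 0.0021). The other 2 probes of *Oas1g* were not detected on any array, nor was the probe of its near-identical neighbour *Oas1a*. Cross-binding between such paralogs was not tested, so which Oas1 copy gave the signal is uncertain.

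*Oasl2*, which encodes an OAS-like protein, read 11.02, 11.72 and 11.69 on the arrays labelled knock out, against 9.22, 9.95 and 10.29 on those labelled wild type at ILMN_2954868. The groups were apart, with a log2 difference of 1.65 (standard error 0.32, adjusted p = 0.016), and the dimmer probe ILMN_2599154 differed by 1.28 (adjusted p = 0.022). *Oas2* read 7.06, 7.73 and 7.56 on the arrays labelled knock out, against 5.68, 6.42 and 6.53 on those labelled wild type (adjusted p = 0.025). *Oasl1*, known in mice to inhibit translation of *Irf7*, was not detected on any array labelled wild type by ILMN_2793464 and was at least 1.49-fold higher on the others (adjusted p = 0.027). Its other probes were not tested, since ILMN_2722380 was not detected on any array and ILMN_2717366 on only 1, labelled knock out. *Oas3* was not detected on any array by either of its probes. Both *Oas1g* probes passed with any 1 array left out. ILMN_2954868 of *Oasl2* did not pass without array X or Y (adjusted p up to 0.074), and ILMN_2599154, *Oas2* and *Oasl1* did not pass without array X, array Y or wild type replicate 1 (up to 0.09, 0.10 and 0.11). *Oasl1* also did not pass with no filter on dim probes (adjusted p = 0.052) or with a replicate block on the authors' table (adjusted p = 0.051).

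Transcription factors of the pathway had 3 of 8 tested probes called higher, and all 8 differences were positive. *Irf9*, the DNA-binding subunit of the complex that type I interferon activates, read 9.38, 9.83 and 9.73 on the arrays labelled knock out, against 8.36, 8.91 and 8.85 on those labelled wild type at its brightest probe ILMN_1233461. The groups were apart, and the log2 difference was 0.94 (standard error 0.19, adjusted p = 0.020). Its partner *Stat2* was not called (0.57, 95% interval -0.01 to 1.14, adjusted p = 0.15). *Irf1*, a factor that interferon-γ induces strongly, read 10.03, 10.33 and 10.09 on the arrays labelled knock out, against 9.31, 9.24 and 9.49 on those labelled wild type at ILMN_2834777 (log2 difference 0.80, adjusted p = 0.0085). Its dimmer tested probes had differences of 0.46, 0.95 and 1.00 with adjusted p of 0.19, 0.13 and 0.067, and another probe was not detected on any array. *Irf7*, the factor that amplifies type I interferon production, had a difference of 1.09 that did not pass (95% interval 0.27 to 1.92, adjusted p = 0.074), although its groups did not overlap. ILMN_2834777 of *Irf1* passed with any 1 array left out but not with median scaling (adjusted p = 0.15), and ILMN_1233461 of *Irf9* did not pass with median scaling (adjusted p = 0.12) or without array X, array Y or wild type replicate 1 (up to 0.09). Without wild type replicate 2, *Irf7* (adjusted p = 0.0018), *Stat2* (adjusted p = 0.042) and all of the tested *Irf1* probes passed.

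The ubiquitin-like modifier *Isg15* and other genes of protein modification were higher at 5 of 7 tested probes. *Isg15*, whose product is attached to other proteins during an interferon response, read 11.92, 12.67 and 12.45 on the arrays labelled knock out, against 9.75, 10.66 and 10.66 on those labelled wild type. Even the lowest array labelled knock out lay above the highest array labelled wild type, and the difference was 1.99 (standard error 0.30, adjusted p = 0.007), or 3.97-fold. The scanner signals before any correction were 2679, 7208 and 5269 on the arrays labelled knock out and 949, 2061 and 1646 on those labelled wild type. *Usp18*, which removes ISG15 from proteins and restrains the type I receptor, read 10.33, 11.08 and 10.94 on the arrays labelled knock out, against 8.68, 9.64 and 9.62 on those labelled wild type at ILMN_3131679. This probe differed by 1.47 (adjusted p = 0.023), and the probes ILMN_2433990 and ILMN_3054914 by 1.32 (adjusted p = 0.039) and 2.56 (adjusted p = 0.026). *Isg15* passed with any 1 array left out. No *Usp18* probe passed without array X, array Y or wild type replicate 1, and ILMN_2433990 and ILMN_3054914 also did not without knock out replicate 1 (adjusted p of the 3 probes up to 0.14). With no filter on dim probes ILMN_2433990 and ILMN_3054914 had adjusted p of 0.077 and 0.055, and with median scaling ILMN_2433990 had 0.057.

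*Trim30a*, an interferon-induced TRIM protein of mice, read 8.37, 9.06 and 8.94 on the arrays labelled knock out, against 7.37, 7.94 and 8.10 on those labelled wild type (log2 difference 0.99, adjusted p = 0.041). *Trim25*, the ubiquitin ligase that helps activate RIG-I, had a difference of 0.06 with a wide interval of -0.76 to 0.88 (adjusted p = 0.91). *Parp14*, an ADP-ribosyltransferase, was not called at 0.78 (adjusted p = 0.072), although its groups did not overlap, and *Parp9* was not detected on any array. *Trim30a* did not pass without array X, array Y or wild type replicate 1 (adjusted p up to 0.14), with median scaling (0.11) or with no filter on dim probes (0.078), and *Parp14* passed without wild type replicate 2 (adjusted p = 0.012).

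**Figure D2:**
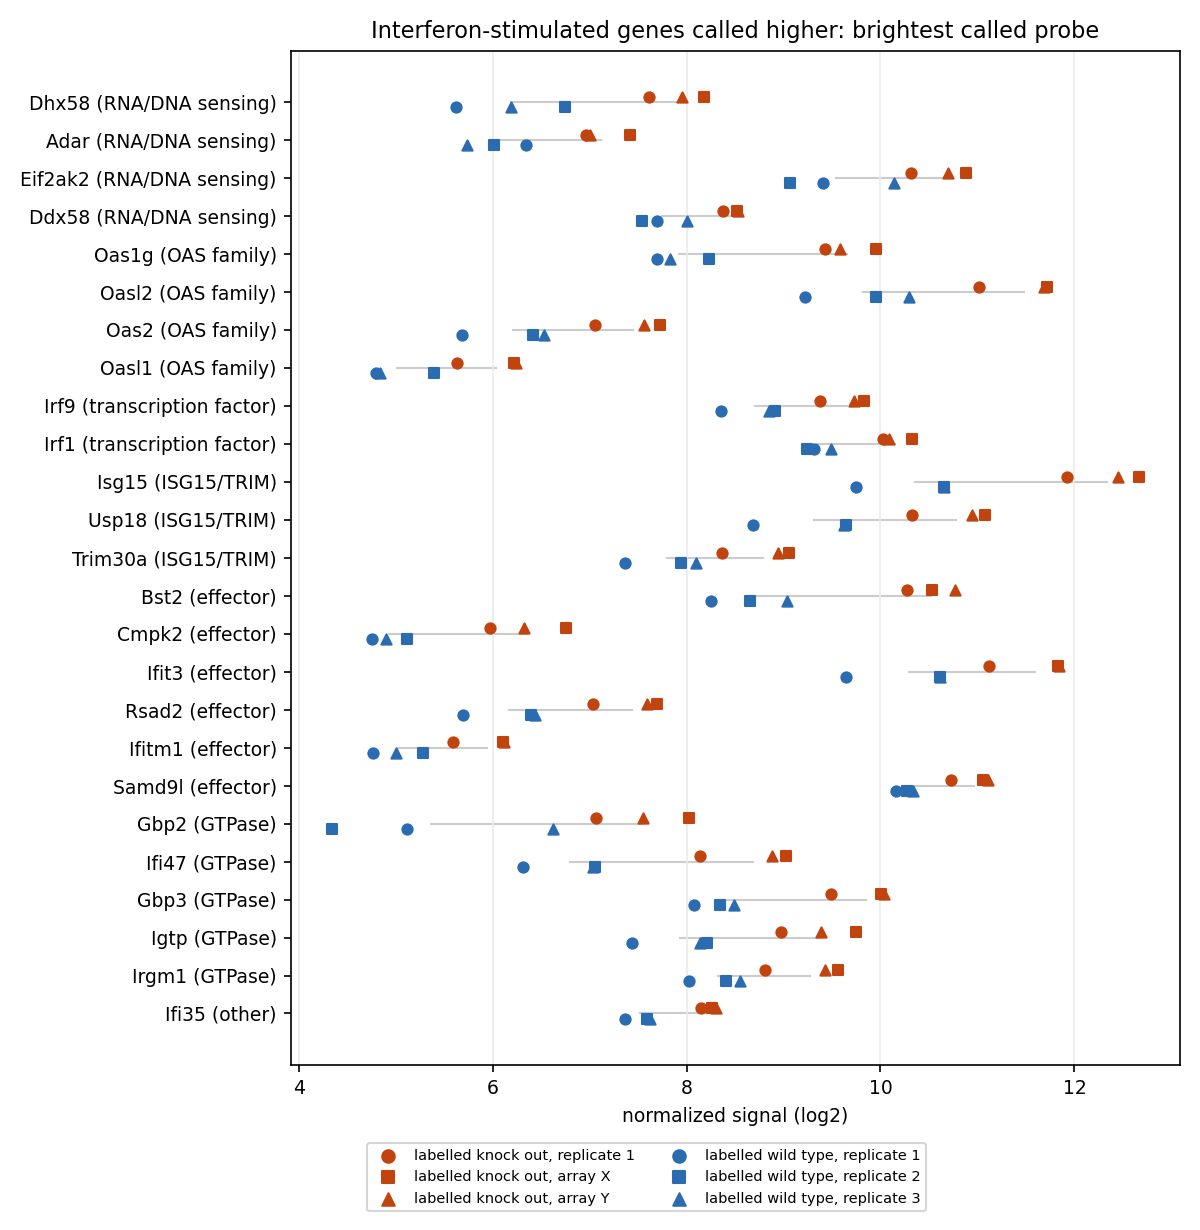
Normalized log2 signal on each array for the brightest called probe of the 25 genes with a probe called higher, grouped by role. Orange markers are the 3 arrays labelled knock out and blue markers the 3 labelled wild type, grey lines join the group means, and in every row all orange markers lie to the right of the blue ones, as for *Isg15* at 11.92 to 12.67 against 9.75 to 10.66.

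Antiviral effectors had 8 of 12 tested probes higher. *Bst2*, which encodes tetherin, a membrane protein that holds budding virus at the cell surface, read 10.27, 10.53 and 10.77 on the arrays labelled knock out, against 8.25, 8.65 and 9.04 on those labelled wild type. No array came near the other group, and the difference was 1.87 (standard error 0.23, adjusted p = 0.0029), or 3.66-fold. *Rsad2*, which encodes viperin, read 7.03, 7.70 and 7.59 on the arrays labelled knock out, against 5.69, 6.40 and 6.44 on those labelled wild type (log2 difference 1.27, adjusted p = 0.021). *Cmpk2*, its neighbour in the genome and a mitochondrial nucleotide kinase gene, was not detected on any array labelled wild type and was at least 1.87-fold higher on those labelled knock out (adjusted p = 0.0068). *Samd9l* read 10.73, 11.06 and 11.11 on the arrays labelled knock out, against 10.16, 10.27 and 10.34 on those labelled wild type (log2 difference 0.71, adjusted p = 0.016). *Bst2* and *Cmpk2* passed with any 1 array left out, while *Rsad2* and *Samd9l* did not without array X, array Y or wild type replicate 1 (adjusted p up to 0.091 and 0.075). *Samd9l* also did not pass with median scaling (adjusted p = 0.25).

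IFIT proteins bind viral RNA ends. *Ifit3* was higher at 3 of 3 probes, and the brightest, ILMN_2944666, read 11.12, 11.83 and 11.84 on the arrays labelled knock out, against 9.64, 10.61 and 10.61 on those labelled wild type (log2 difference 1.31, standard error 0.32, adjusted p = 0.036). *Ifit2*, a neighbour in the same gene cluster, was not called at either probe (0.32 and 0.38, adjusted p = 0.15 and 0.26), and *Ifit1* was not detected on any array by its 1 probe. The difference between *Ifit3* and *Ifit2* was itself not tested. IFITM proteins block viral entry. *Ifitm1* was not detected on any array labelled wild type and was at least 1.41-fold higher on the others by ILMN_2814484 (adjusted p = 0.023), while its other 2 probes were not detected at all. *Ifitm2* read 13.54, 13.75 and 13.78 on the arrays labelled knock out and 13.60, 13.54 and 13.42 on those labelled wild type, with overlapping groups (log2 difference 0.17, 95% interval -0.10 to 0.44, adjusted p = 0.32). *Ifitm3* read 13.85, 13.95 and 13.95 on the arrays labelled knock out and 13.61, 13.69 and 13.63 on those labelled wild type. These groups were apart by a small step (log2 difference 0.28, 95% interval 0.05 to 0.51, adjusted p = 0.097). Without array X, array Y or wild type replicate 1, neither ILMN_2944666 of *Ifit3* nor *Ifitm1* passed, and the *Ifit3* probe also did not without knock out replicate 1 (adjusted p up to 0.13 and 0.098). The *Ifit3* probe also did not pass with median scaling (adjusted p = 0.06) or with no filter on dim probes (adjusted p = 0.072), nor *Ifitm1* with a replicate block on the authors' table (adjusted p = 0.052).

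Interferon-inducible GTPases, many of which act at the vacuoles of intracellular pathogens, had 7 of 10 tested probes higher. *Gbp3*, a guanylate-binding protein gene, read 9.49, 10.01 and 10.04 on the arrays labelled knock out, against 8.08, 8.34 and 8.49 on those labelled wild type at ILMN_1244513 (log2 difference 1.55, standard error 0.19, adjusted p = 0.0029). Its second probe, ILMN_2918002, differed by 1.49 (adjusted p = 0.019). *Ifi47* read 8.14, 9.03 and 8.88 on the arrays labelled knock out, against 6.31, 7.06 and 7.04 on those labelled wild type (log2 difference 1.88, adjusted p = 0.0084). *Igtp*, like *Ifi47* an immunity-related GTPase gene, read 8.97, 9.75 and 9.39 on the arrays labelled knock out, against 7.44, 8.21 and 8.14 on those labelled wild type (log2 difference 1.44, adjusted p = 0.016). The groups were apart at each of these probes. *Mx2*, a dynamin-like GTPase gene, was not called at 0.75 (adjusted p = 0.084). Its sister *Mx1* was not detected on any array, and *Iigp1* was detected by 1 of its 2 probes on 1 array labelled wild type. ILMN_1244513 of *Gbp3* and *Ifi47* passed with any 1 array left out, *Igtp* did not without array X or Y (adjusted p up to 0.069), and ILMN_2918002 did not without either of these or wild type replicate 1 (up to 0.083). *Mx2* passed without wild type replicate 2 (adjusted p = 0.0055).

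Of the remaining genes, *Ifi35* read higher on all 3 arrays labelled knock out by 0.71 (standard error 0.12, adjusted p = 0.0089). It did not pass with median scaling (0.55, adjusted p = 0.19) or without array Y (adjusted p = 0.056). *Ifi27*, a mitochondrial protein gene named for its induction by interferon-α, had both of its probes slightly below the arrays labelled wild type, at -0.32 (adjusted p = 0.14) and -0.40 (adjusted p = 0.11), with no overlap between groups. *Rtp4* was detected on 2 arrays labelled knock out and none labelled wild type, and *Xaf1* was not detected on any array. Together with *Ifit1*, *Mx1*, *Oas1a*, *Oas3*, *Iigp1* and *Parp9*, these are the 8 genes on the array with no tested probe. The 11 genes that were tested with no probe called were *Ifih1*, *Zbp1*, *Irf7*, *Stat2*, *Trim25*, *Parp14*, *Ifit2*, *Ifitm2*, *Ifitm3*, *Mx2* and *Ifi27*.

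Probes of one gene did not always give the same size of difference. The largest differences of the 54 probes came from the dimmer *Ifit3* probes, which were near background on some arrays labelled wild type. ILMN_1230458 read 9.68, 10.57 and 10.33 on the arrays labelled knock out, against 6.59, 5.21 and 8.85 on those labelled wild type (log2 difference 3.31, standard error 0.85, adjusted p = 0.041). ILMN_1246194 read 9.78, 10.53 and 10.44 on the arrays labelled knock out, against 6.75, 5.47 and 8.92 on those labelled wild type (3.21, standard error 0.81, adjusted p = 0.038). Wild type replicate 2 was low and replicate 3 high at both, whereas at the bright probe of the same gene these replicates were level at 10.61.

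The same split was seen at dim probes of other genes. *Usp18* read 9.19, 9.60 and 9.45 on the arrays labelled knock out, against 6.83, 5.63 and 8.11 on those labelled wild type at ILMN_3054914. *Irf9* read 8.30, 8.45 and 8.25 on the arrays labelled knock out, against 6.11, 4.87 and 7.46 on those labelled wild type at ILMN_2636339 (log2 difference 2.19, adjusted p = 0.047). *Gbp2*, another guanylate-binding protein gene, read 7.07, 8.03 and 7.55 on the arrays labelled knock out, against 5.12, 4.34 and 6.62 on those labelled wild type at ILMN_3047389 (log2 difference 2.19, adjusted p = 0.042), and it was detected on 1 of the 3 arrays labelled wild type. The bright *Gbp2* probe, ILMN_3122961, differed by 0.69 and was not called (adjusted p = 0.065). Wild type replicate 3 exceeded replicate 2 by more than 2 on the log2 scale at 5 of the 54 probes (9.26%), against 236 of all 11089 tested probes (2.13%). With the authors' table, which has no background correction, the differences of these 5 probes were smaller, at 2.56, 2.53, 1.94, 1.40 and 1.25. None of the 5 passed without knock out replicate 1, array X, array Y or wild type replicate 1 (adjusted p up to 0.15), nor did any with no filter on dim probes (adjusted p of 0.055 to 0.096). *Gbp2* and *Irf9* also did not pass with cyclic loess normalization (adjusted p = 0.052 and 0.059), nor did *Gbp2* with a replicate block on the authors' table (0.054), nor *Irf9* and both *Ifit3* probes with a trended, robust variance model (adjusted p of 0.051 to 0.055). The bright *Gbp2* probe passed without knock out replicate 1 or wild type replicate 3 (as low as 0.033).

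*Irgm1*, a regulator of the other immunity-related GTPases, showed the widest disagreement of these genes. ILMN_2804037 read 12.65, 12.69 and 12.75 on the arrays labelled knock out and 13.04, 12.82 and 13.02 on those labelled wild type, which is slightly lower on the arrays labelled knock out but not called (-0.27, adjusted p = 0.13). ILMN_1234539 read 8.81, 9.56 and 9.43 on the arrays labelled knock out, against 8.02, 8.41 and 8.55 on those labelled wild type (0.94, adjusted p = 0.037). ILMN_2711172 read 6.54, 7.16 and 7.04 on the arrays labelled knock out, against 4.96, 4.59 and 5.82 on those labelled wild type (1.79, adjusted p = 0.014), and was detected on 1 of the 3 arrays labelled wild type. The groups were apart at each probe, once in the opposite direction. Neither called probe passed without array X, array Y or wild type replicate 1 (adjusted p up to 0.13 and 0.067). ILMN_1234539 also did not pass with median scaling (adjusted p = 0.14) or with no filter on dim probes (adjusted p = 0.069). All 3 probes carry the same transcript accession in the annotation.

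**Figure D3:**
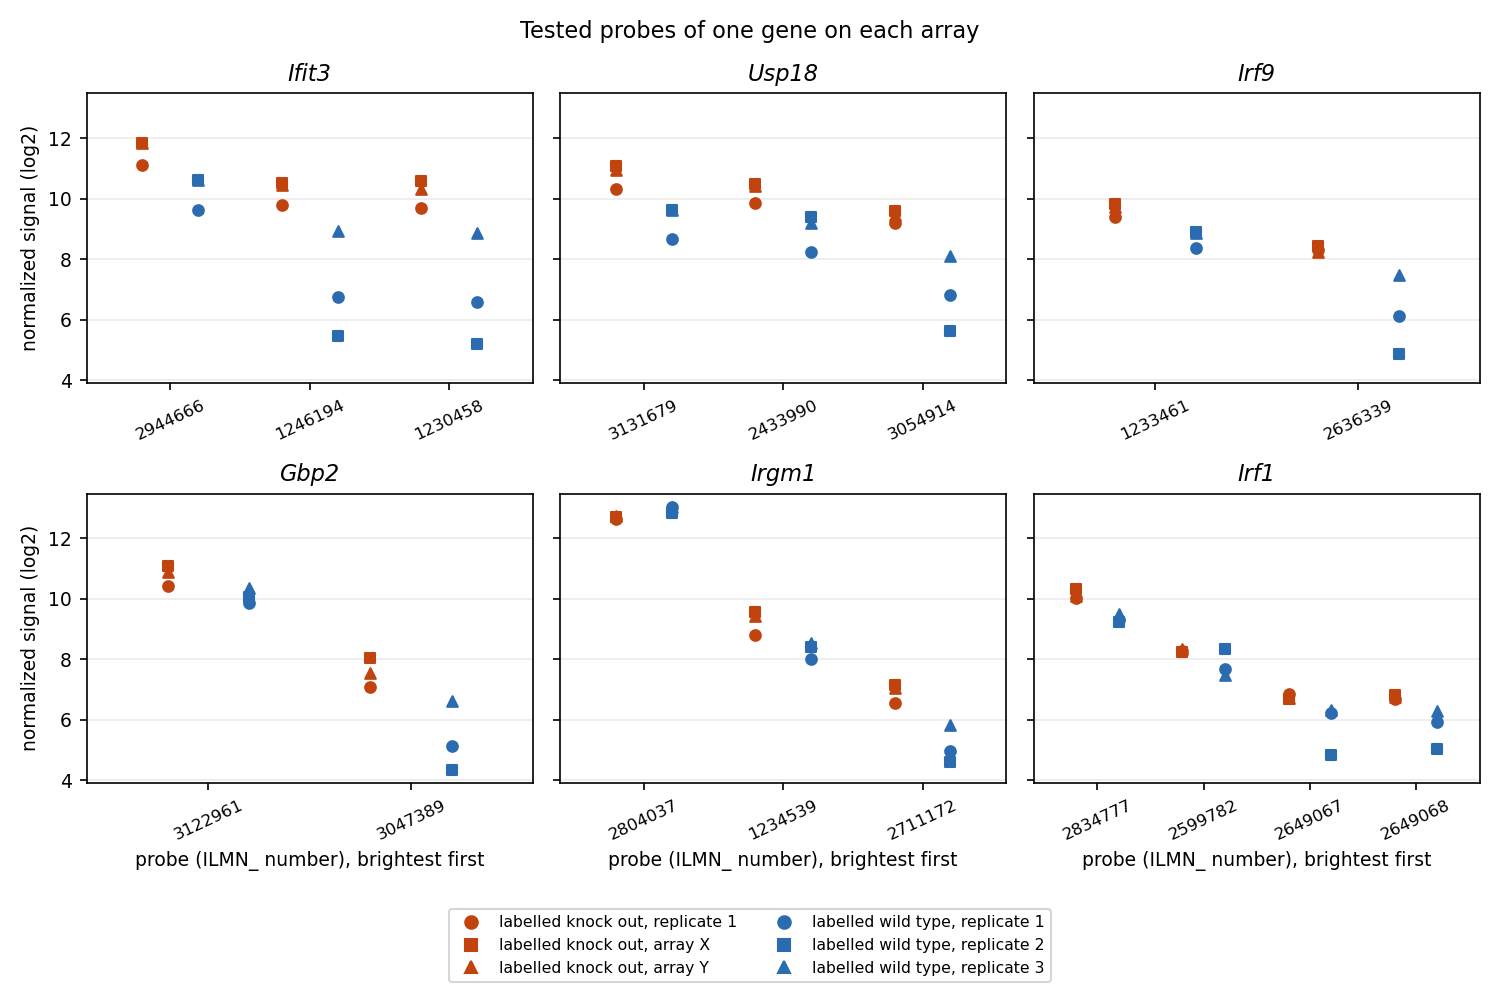
Normalized log2 signal of every tested probe of *Ifit3*, *Usp18*, *Irf9*, *Gbp2*, *Irgm1* and *Irf1* on each array, probes ordered from brightest to dimmest. Orange markers are the arrays labelled knock out and blue markers those labelled wild type, with 1 marker shape per array. At the dim probes of *Ifit3* the blue markers spread from 5.21 to 8.92, while at its bright probe they lie between 9.64 and 10.61.

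Within each group, 1 array was the lowest at most of the interferon probes. Knock out replicate 1 was the lowest of its group at 48 of the 54 tested probes (88.9%), against 37.9% of all tested probes. Wild type replicate 1 was the lowest of its group at 34 of the 54 (63.0%), against 20.7% of all tested probes. Their spread within a group was also wider, with a median SD of 0.291 for the 54 probes and 0.117 for all tested probes on the arrays labelled knock out, and of 0.398 and 0.203 on those labelled wild type. These shares describe probes on the same few arrays and carry no test. Both arrays bear the replicate number 1, and whether arrays of the same number are paired was not tested at these probes alone. Among the wild type arrays replicate 2 was the highest at 24 probes and replicate 3 at 26. The summed macrophage signal was 3390 on knock out replicate 1, between the 3450 of array X and the 3050 of array Y, and it was 9220 on wild type replicate 1, below the 9550 of replicate 2 and the 9270 of replicate 3.

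**Figure D4:**
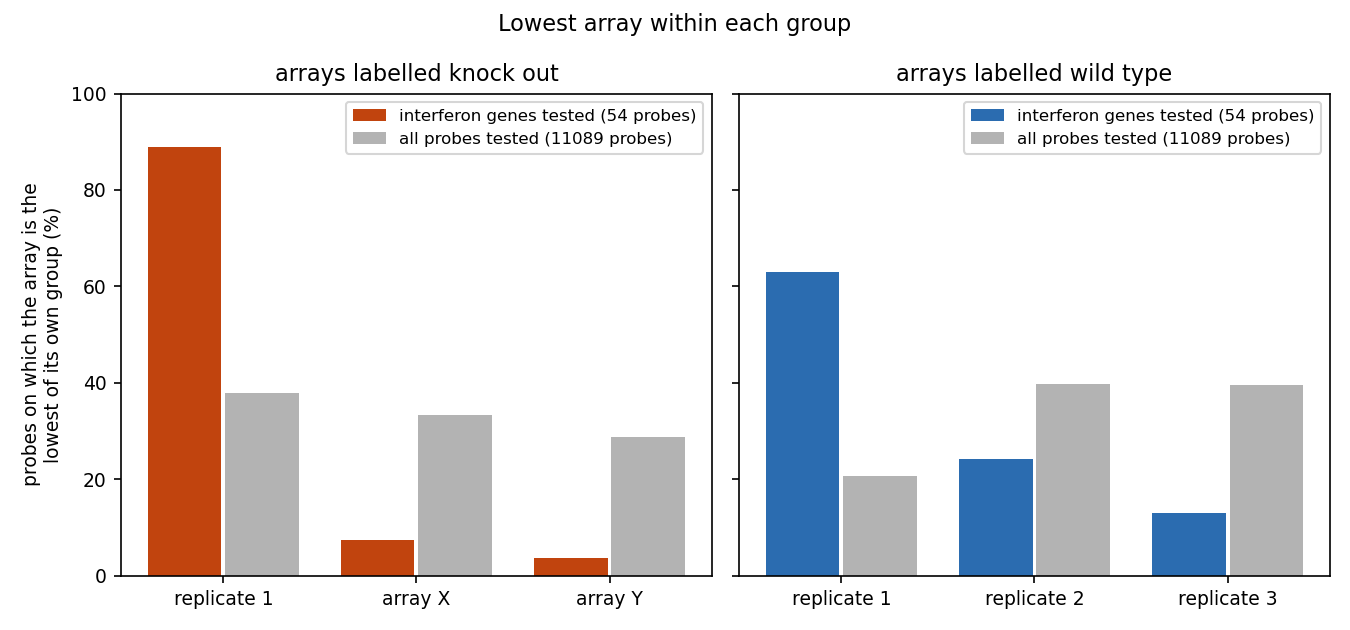
Percentage of probes on which an array was the lowest of its own group, for the 54 tested interferon probes (coloured) and all 11089 tested probes (grey). The coloured bar of replicate 1 stands at 88.9% in the arrays labelled knock out and at 63.0% in those labelled wild type, above its grey bar of 37.9% and 20.7%.

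Few upstream parts of the pathway were called. Ligands were at background. Of 9 probes for 7 interferon genes, 8 were not detected on any array and 1 was detected on a single array, so none was tested. In a list of 55 genes for ligands, receptors, kinases, adaptors and regulators, 47 had a probe and 46 probes were tested. Of these 5 (10.9%) were higher and 4 (8.7%) were lower, shares close to those of all probes, and the median difference was -0.02. The receptor gene *Ifngr1* read 7.86, 8.01 and 8.0 on the arrays labelled knock out, against 8.53, 8.57 and 8.31 on those labelled wild type (log2 difference -0.51, adjusted p = 0.026). *Tank*, an adaptor of the kinases that activate IRF3, was lower at 2 probes (-0.63 and -0.61, adjusted p = 0.036 and 0.016) and not called at its other tested probe (0.60, adjusted p = 0.38), and 1 of 2 tested *Riok3* probes was lower (-0.46, adjusted p = 0.041).

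Those higher were *Samhd1*, which hydrolyses deoxynucleotides, at 2 probes (0.76 and 0.45, adjusted p = 0.0084 and 0.023), *Irf2bp1*, a corepressor of IRF2 (0.56, adjusted p = 0.0097), *Myd88*, the adaptor of Toll-like receptors (0.56, adjusted p = 0.018), and 1 of 2 tested probes of *Nlrx1*, a mitochondrial NOD-like receptor gene (0.51, adjusted p = 0.042). *Samhd1* is itself induced by interferon in many cells. These counts moved with the arrays used. Without array X, array Y, knock out replicate 1 or wild type replicate 1, the probes higher were 1 or 2 and none was lower in any of these 4 fits. Over all tested probes, 399 to 526 were higher and 343 to 430 were lower in the same fits. With median scaling of the arrays in place of quantile normalization, none was called in either direction. Over all 11089 tested probes, median scaling gave 521 higher and 572 lower, against 982 and 1022 in the main fit.

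A second list held 105 other interferon-stimulated genes, of which 75 had a probe and 50 probes were tested. Of these, 20 (40.0%) from 18 genes were higher and 1 (2.0%) was lower, against 8.86% and 9.22% of all tested probes, with a median difference of 0.62. Detection was on 2 or fewer arrays labelled wild type at 15 of the 50. Among the 35 detected on all 6 arrays, 9 (25.7%) were higher, against 7.89% of all probes so detected, and the median difference was 0.37. *Phf11d*, a PHD finger protein gene of mice, led at 2.35 (adjusted p = 0.0028) and 1.91 (adjusted p = 0.0019). The chemokine gene *Cxcl10*, a classical target of interferon-γ, read 7.01, 7.76 and 7.34 on the arrays labelled knock out, against 5.16, 5.71 and 5.95 on those labelled wild type (log2 difference 1.76, adjusted p = 0.0065). *Ifi204*, a DNA-binding PYHIN family gene, differed by 1.74 (adjusted p = 0.0073). *Uba7*, the activating enzyme for ISG15, read 8.82, 9.09 and 9.10 on the arrays labelled knock out, against 6.85, 7.61 and 7.53 on those labelled wild type (1.67, adjusted p = 0.004). *Psmb9*, a subunit of the immunoproteasome, differed by 1.64 (adjusted p = 0.00089). The probe called lower belongs to *Ifi30*, a lysosomal thiol reductase gene of antigen-presenting cells (-0.63, adjusted p = 0.008), and the other tested probe of that gene had a difference of -0.24 (adjusted p = 0.45). The probes higher were 11 without array X, 10 without array Y and 12 without wild type replicate 1. Over all tested probes, the counts higher in these fits were 430, 399 and 447.

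**Figure D5:**
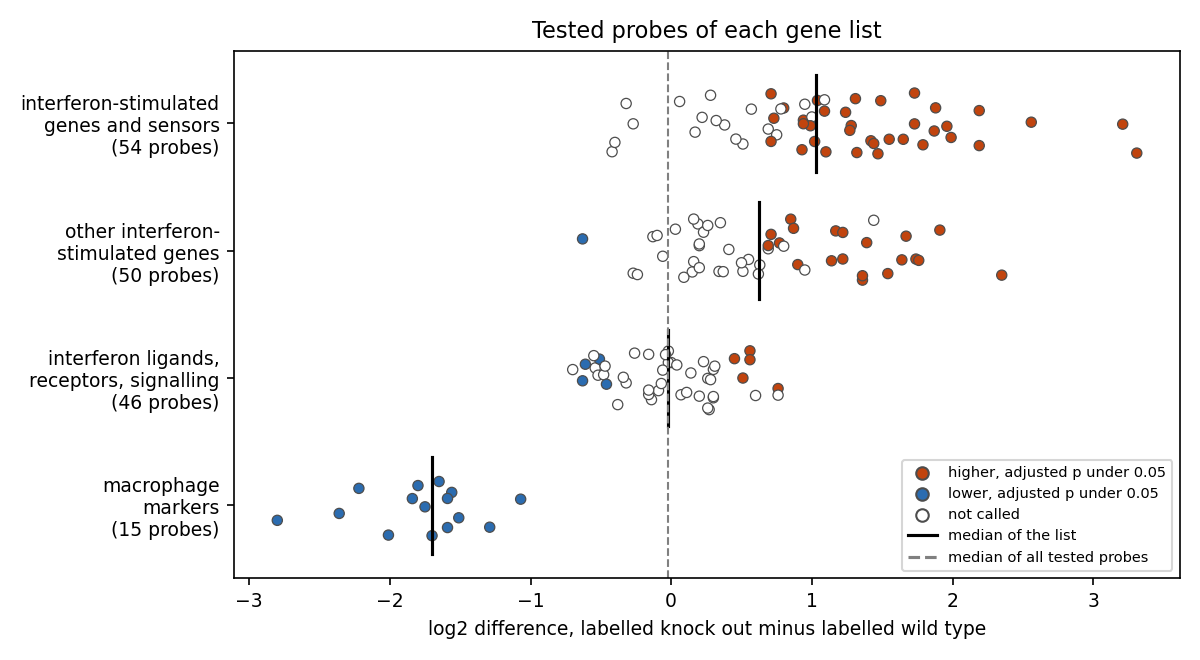
Log2 difference of each tested probe in 4 gene lists, arrays labelled knock out minus arrays labelled wild type. Filled points were called (orange higher, blue lower), black bars are list medians of 1.03, 0.62, -0.02 and -1.70 from top to bottom, and the dashed line is the median of all tested probes, -0.02.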

How the data were processed

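Total RNA of 6 samples was hybridized to 1-colour Illumina bead arrays, 3 labelled *Mmp13* knock out and 3 labelled wild type. The deposited scanner table holds signal intensity values that the authors took from BeadStudio without background subtraction (lowest signal 53.7), with a detection p-value per probe given by the authors' software. The authors normalized these signals with lumi (version not given in the sources used here) by quantile normalization, and the deposited normalized table holds log2 values. No sample column was left unused (0). The tables were joined by ranks on the 4 arrays that both name, and 25697 of 25697 probes were linked one to one. Probe names are those of the platform annotation (23978 probes with 1 gene, 0 with several, 1719 not listed), brought up to date through RefSeq identifiers.

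The neqc function of limma 3.58.1 (R 4.3.3, offset 16) then corrected the signals for background, inferred from the detection p-values, and quantile normalized them. Detection at p under 0.01 on 3 or more of the 6 arrays was required, which left 11089 probes. They were tested with lmFit and eBayes, with no covariate, and the Benjamini-Hochberg adjustment ran over all 11089, at a threshold of 0.05. A probe below detection throughout a group has only a bound there, the mean of the higher of its own value and the lowest value of a detected probe on each array, and its fold is given as "at least". Over all tested probes, samples of the same replicate number hardly deviated together (r = 0.105, -0.0552 and -0.0501), so no pairing was used. At the 54 interferon probes, however, replicate 1 was the lowest of its group at 48 among the arrays labelled knock out and at 34 among those labelled wild type. Pairing was not tested at these probes alone. With 3 against 3 arrays an exact permutation test of a single probe cannot go below p = 0.1, and the number of arrays limits the precision.

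The genes, the lists and the rule for naming genes were chosen with earlier results of these data known. All genes are accounted for, and of the other lists the 5 largest differences per direction are named. Values per array are given for most, but not all, of the called probes. The limma step was tested on simulated log2 values. Promoters were searched in Python 3.11.15. Alternatives were other background corrections, scalings and filters, the authors' table, other variance models, a replicate block and each array left out.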

Additional observations from a re-analysis of the deposited data

How the results depend on the processing

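The number of interferon probes higher, 35, ran from 25 to 44 under other backgrounds, scalings, filters and variance models and was 38 with the authors' table. Under these settings, all probes called higher ran from 521 to 1431. With 1 array left out, the number of interferon probes higher ran from 9 to 41, and that of all probes from 399 to 1662. No interferon probe was called lower under any setting run. The 8 probes called under every setting that tested them were those of *Isg15*, *Bst2*, *Cmpk2* and *Ifi47*, both of *Oas1g*, ILMN_1244513 of *Gbp3* and ILMN_3093622 of *Adar*, where the *Cmpk2* and *Adar* probes were not tested under detection on all 6 arrays. None of the 35 changed sign, and 11 of the 19 probes not called were called under some setting. Signs turned only for probes not called: *Ifih1* ran from -0.06 (without wild type replicate 1) to 0.50 with 1 array left out, *Ifitm2* was -0.04 with median scaling, and *Trim25* ran from -0.19 to 0.43 with 1 array left out (-0.19 without array X, -0.04 without array Y and -0.11 without wild type replicate 3). Median scaling moved the median difference of all probes to -0.17, from -0.025. The cause was not tested for any of these changes.

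In the list of ligands, receptors and signalling genes, the 5 probes higher became 0 with median scaling, 3 with the replicate block on the authors' table and 1 to 7 with 1 array left out. The 4 lower became 0 with median scaling, 7 with array weights (a fit that stopped short of convergence), 2 with the replicate block and 0 to 6 with 1 array left out. Of the other interferon-stimulated genes, the 20 probes higher became 12 of 35 tested where detection on all 6 arrays was required, and 10 to 28 with 1 array left out, while the 1 lower became 0 with median scaling. The replicate block on the authors' table left 35 interferon probes higher, where the authors' table without the block gave 38. A slide block was not run, since the headings name no slides. Signal near background limits the dim probes, since 12 of the 54 were detected on 2 or fewer arrays labelled wild type.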
